A study of Mus musculus with 36 samples.

Results

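The genes described here encode the secreted chemokines and interleukins of the mouse, taken as every gene of the count table whose symbol starts with Ccl, Cxcl, Cx3cl or Il followed by a number and at most 1 letter, so that receptors were left out. The rule found 74 genes (69 symbols, with 7 copies on unplaced scaffolds) among 54232, and 35 of them, 24 chemokines and 11 interleukins, held enough counts to be tested. Total RNA was sequenced from 12 female C57BL6 mice, all carrying floxed Nampt and all kept for 3 to 5 weeks on a purified diet (PD) made with L-amino acids, which they began at an age of 10 to 12 weeks. HNKO mice (hepatocyte-specific Nampt knockout, Cre recombinase driven by the albumin promoter) and WT littermates without the recombinase gave 6 animals each. Every mouse contributed a piece of perfused liver (L), a washed cell suspension after collagenase digestion (CS) and primary hepatocytes after 24 h of culture (PH). The WT liver library of mouse 558 was left out, leaving 5 WT L libraries and 6 in each other group. The labelled PH libraries hold cells that attached to a plate, not a sorted population.

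Chemokines are small secreted proteins that draw leukocytes along a gradient by binding G protein-coupled receptors. ELR CXC chemokines such as Cxcl1, Cxcl2 and Cxcl5 attract neutrophils through Cxcr2, Ccl2 and Ccl7 attract monocytes through Ccr2, and interferon-inducible Cxcl9, Cxcl10 and Cxcl11 attract T cells through Cxcr3. Interleukins act through cytokine receptors: those of the IL-6 family signal through gp130 to Stat3, and those of the IL-1 family through Myd88 to NF-kB, the transcription factor that also drives many chemokine genes. In the resting liver, Kupffer cells, endothelial cells and stellate cells are known producers of these proteins, and hepatocytes can make several of them.

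Libraries held 8698735 to 20350519 counts in genes, and the library left out held 2547422. Nampt, which encodes the rate-limiting enzyme of NAD salvage and is the targeted gene, lay at 55.6 to 121 CPM (counts relative to the library total, scaled with edgeR's TMM factors) in WT L and at 31.3 to 52.1 CPM in HNKO L. In CS it lay at 58.5 to 159 CPM in WT against 27.8 to 59.1 in HNKO, and in PH at 175 to 241 against 69.1 to 87.3. WT and HNKO ranges overlapped in CS and were apart in L and PH. A pair of mice stood apart in several ligands. These were WT mouse 544 in PH, whose Nampt level of 209 CPM lay within the WT range, and HNKO mouse 552, so results that rest on them are given with and without them. Summed CPM of 11 macrophage markers (12 without Cd68) was 64.5 in WT PH of mouse 544 against 2.48 to 10.2 in the other WT PH libraries. It was 51.7 in HNKO PH of mouse 552 against 4.62 to 22.9 in the other HNKO PH libraries. Cd68 was set apart after its values were seen because it moved the other way, with 11.4 to 19.7 CPM in L and 39.9 to 514 CPM in PH. With Cd68 in the sum, neither library stood apart. WT PH of mouse 544 then held 225 CPM against 181 to 519.5 in the other WT PH libraries. HNKO PH of mouse 552 held 91.6 CPM against 66.6 to 368 in the other HNKO PH libraries.

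Summed over the 74 genes, ligand transcripts took 656 ± 84.2 CPM (SD, n = 5) in WT L and 626 ± 39.6 CPM (SD, n = 6) in HNKO L. The sum was 582 ± 73.5 CPM in WT CS and 638 ± 59.5 CPM in HNKO CS (SD, n = 6 each). In WT PH it ran from 556 to 2576 CPM with a median of 712, and in HNKO PH from 1326 to 3941 CPM with a median of 1780.4. The spread between libraries was thus widest in culture. Which genes made up the sum differed between sample types. Cxcl12, the ligand of Cxcr4, took 69.1% of ligand CPM in WT L and 2.31% in WT PH, while Ccl2 took 0.185% in WT L and 38.5% in WT PH.

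Levels of different genes were compared as CPM per kilobase of exon. In WT L the order was led by Cxcl12 with 55.8 CPM per kb, Ccl9 with 27.6, Il18, an IL-1 family cytokine that lies outside the rule for named genes, with 12.1 and Cxcl9 with 6.81. HNKO L had the same 4 genes in front, with 47.1, 31.1, 12.0 and 11.6 CPM per kb. In WT CS, Cxcl1 stood at 27.6 CPM per kb, between Cxcl12 with 41.9 and Ccl9 with 26.2. In WT PH, Ccl2 led with 353 CPM per kb ahead of Cxcl1 with 119, and in HNKO PH the same pair stood at 774 and 225 CPM per kb. Ccl9 and Cxcl1 lay closer to each other in WT CS than the spread of Cxcl1 between libraries.

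**Figure D1:**
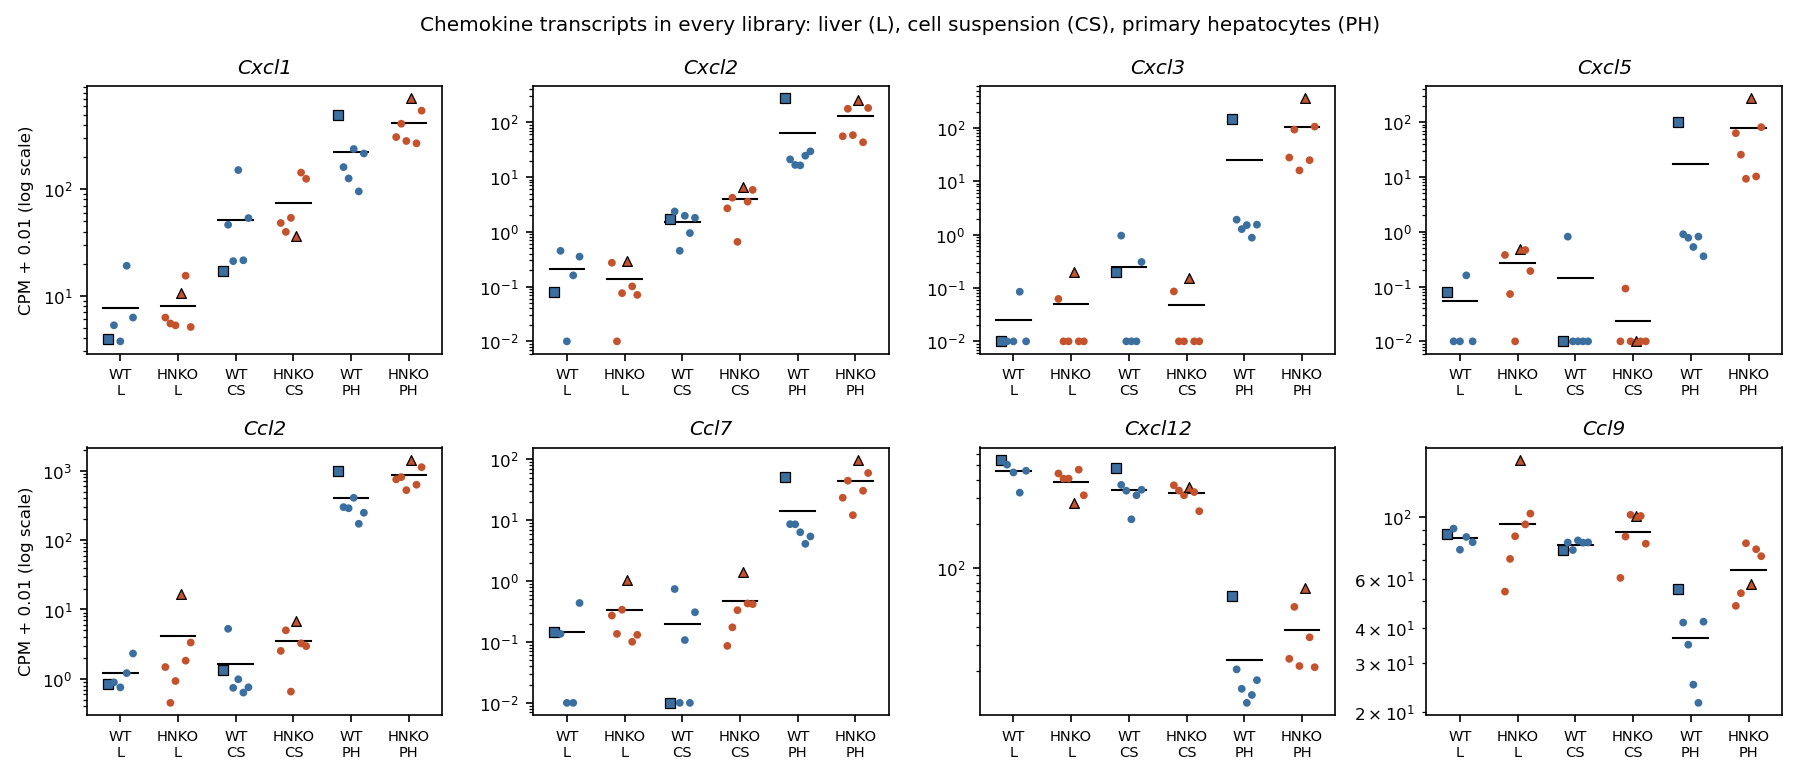
Level of 8 chemokine transcripts in each of the 35 libraries, as CPM plus 0.01 on a log axis, for WT (blue) and HNKO (orange) in L, CS and PH. Points are libraries, bars are group means, squares mark WT mouse 544 and triangles HNKO mouse 552. Ccl2 lies between 0.441 and 16.9 CPM in L and CS and between 172 and 1445 CPM in PH, and Cxcl12 between 215 and 546 CPM in L and CS and between 12.2 and 74.0 CPM in PH.

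The effect of taking the liver apart was read from CS against L. Few ligands moved at this step, and those that did were led by neutrophil chemokines. In WT, 1 of 35 tested ligands was called (adjusted p under 0.05 in edgeR's quasi-likelihood test with Benjamini-Hochberg adjustment over 14932 genes), where 3.5% of all tested genes were called in either direction and 1.03% higher. The median log2 fold change of the 35 was 0.01, beside -0.015 over all tested genes. In HNKO, 3 ligands were called higher and 1 lower, where 5.37% of all tested genes were called in either direction, 1.94% higher and 3.44% lower, and the medians were -0.082 and 0.017.

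Cxcl1, an attractant of neutrophils, was the ligand called in both genotypes. WT L libraries held 3.91, 5.27, 3.72, 19.1 and 6.23 CPM, and WT CS libraries ran from 17.1 to 151 CPM with a median of 33.9. HNKO L ran from 5.08 to 15.4 CPM with a median of 5.85, and HNKO CS from 36.3 to 143 CPM with a median of 50.9. Each CS library lay above the L libraries of its genotype, apart from WT CS of mouse 544, which lay below WT L of mouse 556. Cxcl1 rose by a log2 fold change of 2.76 ± 0.57 (SE; 6.76-fold, adjusted p = 0.00226) in WT and 3.24 ± 0.54 (9.44-fold, adjusted p = 9.92e-05) in HNKO in edgeR's test. The highest WT library came from mouse 556 in L and in CS, and the highest HNKO library from mouse 562 in L and in CS.

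Cxcl2, a neutrophil chemokine with the same receptor, was near the detection limit in L. WT L held 0.0686, 0.439, 0, 0.15 and 0.342 CPM, while WT CS ran from 0.44 to 2.34 CPM with a median of 1.74. HNKO L ran from 0 to 0.281 CPM with a median of 0.0783, and HNKO CS from 0.645 to 6.45 CPM with a median of 3.86. Every CS library lay above every L library of its genotype. The log2 fold change was 4.88 ± 1.12 (29.4-fold, adjusted p = 0.00487) in HNKO and 2.89 ± 1.27 (adjusted p = 0.252) in WT by edgeR. With the mouse as a replicate block, Cxcl2 was called in WT as well (3.22 ± 0.89, adjusted p = 0.0354), so that 2 ligands were called there, where 4.71% of all tested genes were called.

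Cxcl10, an interferon-inducible attractant of T cells, ran from 2.96 to 5.81 CPM in HNKO L with a median of 4.06 and from 6.41 to 18.7 CPM in HNKO CS with a median of 9.3. The groups did not overlap, and the log2 fold change of 1.41 ± 0.43 (2.65-fold) had an adjusted p of 0.0476 in edgeR, which became 0.0793 with the replicate block. The call held without mouse 544, 556 or 564 and was lost without any of the other 9 mice, with an adjusted p of up to 0.184. Exons of Cxcl10 overlap Art3 on the opposite strand, and whether counting used strand was not given in the sources used here. Cx3cl1, a membrane-bound chemokine for monocytes and lymphocytes with Cx3cr1, fell in HNKO from a range of 1.05 to 3.51 CPM in L to 0.242 to 1.1 CPM in CS. These ranges overlapped slightly, with a log2 fold change of -2.17 ± 0.53 (4.5-fold lower, adjusted p = 0.00835 in edgeR). Without HNKO mouse 540 or 566, 2 ligands were called in HNKO (Cxcl1 and Cxcl2), where 3.55% and 3.71% of all tested genes were, and without WT mouse 544 there were 6, where 6.41% were. Differences between the genotypes in the CS against L step were called for 0 of 35 ligands and for 0.0% of all tested genes, in edgeR and in DESeq2, with 1 ligand at an unadjusted p under 0.05.

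Markers of other cells also moved between L and CS. Of 6 tested T, NK and B cell markers, 4 fell in each genotype. Of all tested genes, 3.5% were called in either direction in WT, with 1.03% higher. In HNKO 5.37% were called in either direction, with 1.94% higher and 3.44% lower. Summed CPM of the T, NK and B cell markers went from 15.4 to 19.7 in WT L to 4.69 to 13.0 in WT CS. Neutrophil markers summed to 4.53 to 8.12 CPM in WT L and 1.32 to 3.71 CPM in WT CS. Of these markers, Ly6g was at 0 counts in CS and PH. It was also near 0 in L, with at most 0.0752 CPM in WT and 0.063 CPM in HNKO, so it shows no change. Macrophage markers without Cd68 summed to 580.2 to 744 CPM in WT L and 245 to 771 CPM in WT CS. Sinusoidal endothelial markers went the other way, from 330.2 to 366 CPM in WT L to 376 to 754 CPM in WT CS. In HNKO their sum went from 326 to 438 CPM in L to 567 to 1293 CPM in CS. Fewer cells of a type and less RNA per cell cannot be told apart in these bulk samples, and the part of these cells in the ligand changes was not tested.

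The effect of plating and culture was read from PH against CS. Here most ligands changed, in both directions: Ccl2, Ccl7 and the neutrophil chemokines Cxcl1, Cxcl2, Cxcl3 and Cxcl5 were among those that rose, and Cxcl12, Cxcl11, Ccl24, Il15 and Il1a among those that fell. In WT 15 ligands were called higher and 12 lower of 35, where 75.1% of all tested genes were called, 38.3% upward and 36.8% downward. For HNKO, 18 were called higher and 11 lower, where 75.7% of all tested genes were called, 38.1% higher and 37.6% lower. The share of ligands called was near these backgrounds, and the medians were 0.913 in WT and 0.96 in HNKO, beside 0.054 and 0.028 over all tested genes.

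**Figure D2:**
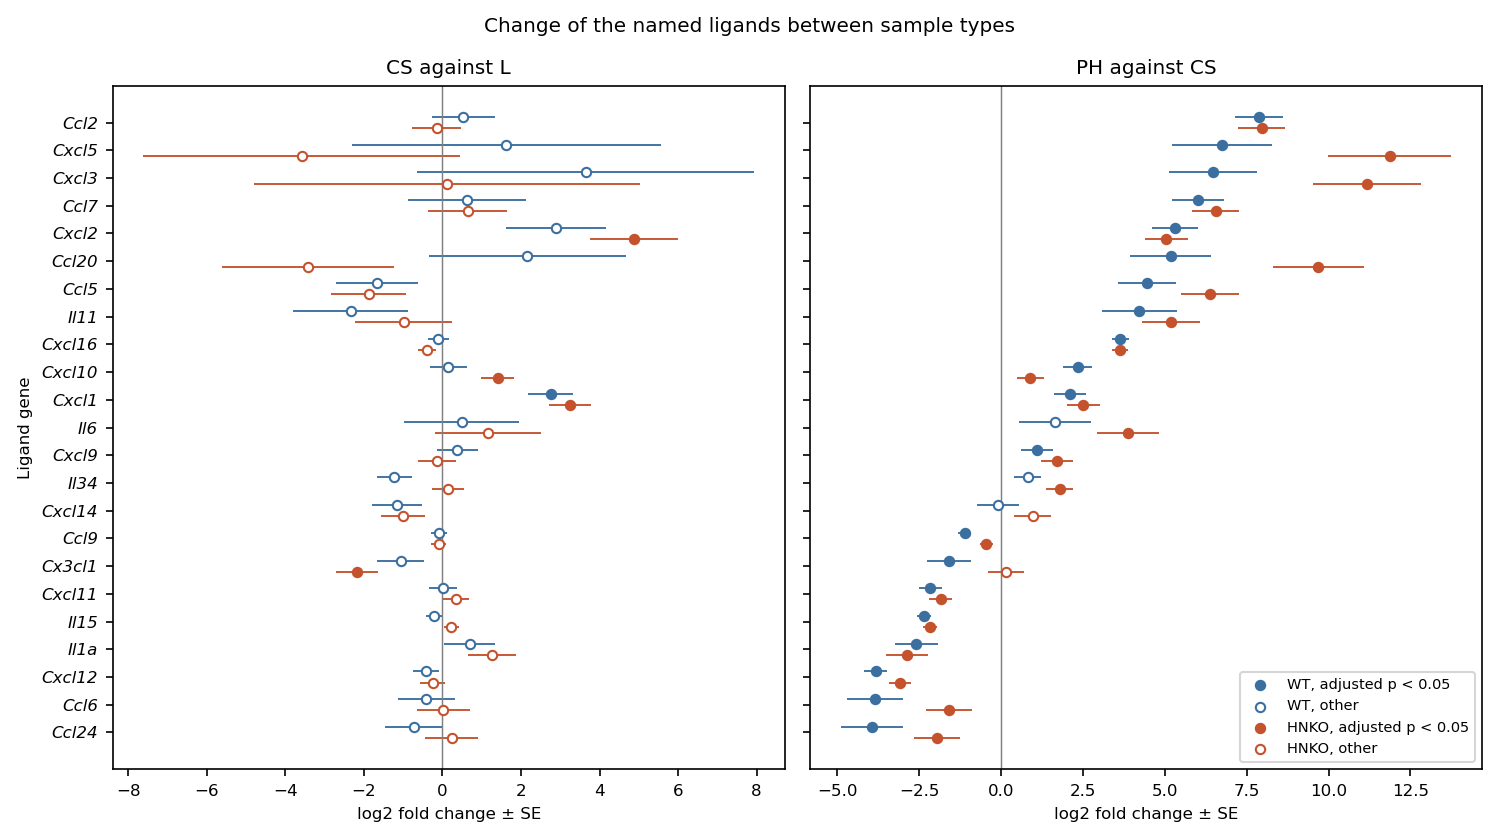
Log2 fold change with its SE for the 23 named ligands, CS against L (left) and PH against CS (right), for WT (blue) and HNKO (orange); filled points had an adjusted p under 0.05 in edgeR. Changes to the right of the line are higher in the later sample type. Ccl2 stands at 7.87 in WT and 7.96 in HNKO for PH against CS, and Cxcl12 at -3.83 and -3.08.

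The 4 tested ELR CXC chemokines rose in both genotypes. Cxcl1 reached 95.2 to 499 CPM in WT PH with a median of 188 and 269 to 714 CPM in HNKO PH with a median of 359.8. WT PH and WT CS overlapped through the CS library of mouse 556, while every HNKO PH library lay above every HNKO CS one. The log2 fold change was 2.10 ± 0.50 (adjusted p = 0.000328) in WT and 2.5 ± 0.50 (adjusted p = 4.16e-05) in HNKO by edgeR. Cxcl2 reached 16.3 to 275 CPM in WT PH with a median of 22.8, and 43.0 to 256 CPM in HNKO PH with a median of 117. Every PH library lay above every CS library, at 5.31 ± 0.71 (adjusted p = 4.14e-08) in WT and 5.05 ± 0.65 (adjusted p = 2.41e-08) in HNKO.

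Cxcl3, a further neutrophil chemokine of this cluster, lay between 0 and 0.95 CPM in L and CS. In WT PH 5 libraries held 0.868 to 1.9 CPM and mouse 544 held 145 CPM, and HNKO PH ran from 16.0 to 362 CPM with a median of 60.5. Cxcl5, an ELR chemokine of epithelial cells, held 0.347 to 0.891 CPM in those 5 WT PH libraries, 101 CPM in mouse 544, and 9.25 to 274 CPM in HNKO PH with a median of 44.2. HNKO PH lay above HNKO CS without overlap for Cxcl3 and Cxcl5, and WT PH reached high values in mouse 544 alone. In HNKO, 13685 counts of Cxcl3 in PH stood against 3 in CS, a ratio per CPM of 3214 (95% counting interval 1099.7 to 15589). Cxcl5 had 10399 counts against 1, a ratio of 7328 (1315 to 289463), and these intervals cover counting error only. In WT the log2 fold change of Cxcl3 was 6.46 ± 1.35 (adjusted p = 6.8e-05 in edgeR), which became 2.16 ± 1.04 (adjusted p = 0.0639) without mouse 544. For Cxcl5 it went from 6.75 ± 1.52 (adjusted p = 0.000186) to 1.69 ± 1.32 (adjusted p = 0.251).

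The promoters of Cxcl1, Cxcl2 and Cxcl3, which rose together, are shown because each carries letters of the kB element that NF-kB binds. Each run gives the 120 bases that end at the RefSeq transcription start (GRCm38.p6, plus strand of chromosome 5), and capitals mark matches on either strand to the kB form (3 G, any 3 bases, T, any base and 2 C), overlapping matches joined.
Cxcl1, chr5:90891125-90891244: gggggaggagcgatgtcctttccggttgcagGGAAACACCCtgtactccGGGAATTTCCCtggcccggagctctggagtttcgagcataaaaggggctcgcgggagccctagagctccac
Cxcl2, chr5:90903779-90903898: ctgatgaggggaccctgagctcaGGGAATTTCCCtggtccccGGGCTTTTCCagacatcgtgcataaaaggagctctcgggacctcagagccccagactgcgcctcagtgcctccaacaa
Cxcl3, chr5:90785981-90786100: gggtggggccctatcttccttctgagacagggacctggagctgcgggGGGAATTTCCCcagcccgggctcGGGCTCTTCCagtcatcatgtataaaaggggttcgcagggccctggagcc
The longest stretch common to the 3 promoters was GGGAATTTCCC, which began 71 bases before the start in Cxcl1, 97 in Cxcl2 and 73 in Cxcl3. Windows of 250 bases before to 50 after the start were searched on both strands, and 23 tested ligands had 30 such windows. The kB form was found in 17.4% of 32851 RefSeq windows and in 12 of the 30 ligand windows (12 ligands). The shared stretch, picked after the sequences were seen, was in 0.0426% of windows and in 4 of these 30 (Cxcl1, Cxcl2, Cxcl3 and Il16). The AP-1 form TGANTCA was in 7.81% of windows and 8 of 30 ligand windows (8 ligands). For the C/EBP form TTGCNNAA it was 10.8% and 6 of 30 (5 ligands).

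The kB form was held by ligands that rose, fell or were not called. Cxcl10, Il6 and Ccl20 had it in this window, and so did Ccl9, Ccl27a and Cxcl13, which fell in PH against CS in both genotypes, with log2 fold changes of -1.51 in WT and -1.25 in HNKO for Ccl27a and -2.15 and -3.0 for Cxcl13. Il16, which held the shared stretch, was not called (-0.05 in WT and -0.46 in HNKO). Ccl27a, Cxcl13 and Il16 lie outside the rule for named genes and were added after their values were seen. Cxcl12 held no match in the 120 bases shown, a statement about these letters alone.
Cxcl10, chr5:92348890-92349009, minus strand: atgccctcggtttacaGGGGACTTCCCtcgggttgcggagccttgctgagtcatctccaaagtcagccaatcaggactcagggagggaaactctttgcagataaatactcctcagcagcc
Il6, chr5:30012994-30013113, plus strand: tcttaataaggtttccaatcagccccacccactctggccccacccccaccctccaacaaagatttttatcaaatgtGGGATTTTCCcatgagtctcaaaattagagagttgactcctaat
Cxcl12, chr6:117168415-117168534, plus strand: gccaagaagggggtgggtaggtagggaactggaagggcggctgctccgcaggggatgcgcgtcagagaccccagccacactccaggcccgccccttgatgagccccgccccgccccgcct

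Among CC chemokines, Ccl2, Ccl7, Ccl5 and Ccl20 rose in culture. Ccl2 (chr11:82035571-82037453 in GRCm38) ran from 0.624 to 5.26 CPM in WT CS with a median of 0.861 and from 172 to 994 CPM in WT PH with a median of 293. In HNKO it went from 0.645 to 6.81 CPM in CS with a median of 3.09 to 525 to 1445 CPM in PH with a median of 780.4. No PH library overlapped a CS library, and Ccl2 rose 234-fold in WT (7.87 ± 0.73, adjusted p = 1.39e-11 in edgeR) and 249-fold in HNKO (7.96 ± 0.71, adjusted p = 6.47e-12). Ccl7, its neighbour in the genome with the same receptor, rose by 6.01 on the log2 scale in WT (adjusted p = 4.46e-08) and 6.55 in HNKO (adjusted p = 6.01e-10). Ccl5, a T cell and monocyte attractant, rose by 4.45 (adjusted p = 3.95e-05) and 6.37 (adjusted p = 9.67e-08). Ccl20, the ligand of Ccr6, had 0 counts in HNKO CS and 890 in HNKO PH, at least 209-fold higher with a floor of 3 counts over the group. In WT it had 2 counts in CS and 167 in PH, a ratio of 50.2 (13.7 to 418).

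Cxcl16, a transmembrane chemokine that binds Cxcr6, rose in both genotypes. WT CS ran from 6.11 to 12.5 CPM with a median of 7.36, and WT PH from 77.7 to 160 CPM with a median of 96.5. HNKO CS ran from 7.82 to 24.8 CPM and HNKO PH from 127 to 196 CPM. The PH and CS ranges were far apart in each genotype, and the log2 fold changes were 3.65 ± 0.25 (12.5-fold, adjusted p = 9.4e-15 in edgeR) and 3.64 (12.4-fold, adjusted p = 6.64e-15). Its exons overlap Zmynd15 on the opposite strand.

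The 3 interferon-inducible CXC chemokines did not move together. Cxcl9 ran from 14.9 to 57.7 CPM in WT CS and from 14.4 to 102 CPM in WT PH, ranges that overlapped, with a log2 fold change of 1.09 ± 0.49 (adjusted p = 0.0438 in edgeR) and 1.70 ± 0.49 (adjusted p = 0.00246) in HNKO. The WT call was lost without mouse 544, where the change was 0.91 ± 0.55 (adjusted p = 0.138), and without mouse 546, 554, 556, 558 or 564 (adjusted p of 0.0522 to 0.171). Cxcl10 rose in WT from 2.93 to 7.53 CPM in CS to 13.9 to 44.5 CPM in PH without overlap (2.34 ± 0.44, adjusted p = 1.38e-05). In HNKO its change was 0.90 ± 0.41 (adjusted p = 0.0454), or 0.78 ± 0.42 (adjusted p = 0.0901) with the replicate block, and leaving out mouse 542, 546, 548, 554, 562 or 566 gave an adjusted p of 0.0523 to 0.204. Cxcl11 fell, from 7.39 to 11.8 CPM in WT CS to 1.15 to 3.38 CPM in WT PH, by 2.16 on the log2 scale in WT (adjusted p = 2.06e-06) and by 1.84 in HNKO (adjusted p = 2.1e-05). Exons of Cxcl11 overlap Gm2673 on the opposite strand.

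Cxcl12 (chr6:117168535-117181367), which holds leukocytes and progenitors in tissues through Cxcr4, fell most in amount. WT L held 546, 505, 447, 326 and 459 CPM, WT CS ran from 215 to 482 CPM with a median of 338, and WT PH held 12.2 to 20.6 CPM in 5 libraries and 64.8 CPM in mouse 544. HNKO CS ran from 244 to 366 CPM with a median of 333 and HNKO PH from 21.3 to 74.0 CPM with a median of 29.2. L and CS overlapped, and PH lay far below both. Cxcl12 was 14.2-fold lower in PH than in CS in WT (-3.83 ± 0.35, adjusted p = 8.61e-12 in edgeR) and 8.44-fold lower in HNKO (-3.08 ± 0.34, adjusted p = 6.24e-10). Ccl9, a Ccr1 ligand known from mouse macrophages, fell less, from 76.0 to 82.5 CPM in WT CS to 21.5 to 55.4 CPM in WT PH (-1.11 ± 0.20, adjusted p = 6.68e-06). Its change in HNKO was -0.45 ± 0.20 (adjusted p = 0.0369), or -0.38 ± 0.19 (adjusted p = 0.0709) without mouse 552, while leaving out mouse 542 or 562 gave 0.0862 and 0.0604.

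Ccl6 and Ccl24, chemokines made by tissue macrophages, were near 0 in culture. Ccl6 ran from 3.14 to 8.59 CPM in WT CS, against 0 to 0.124 CPM in 5 WT PH libraries and 1.87 CPM in mouse 544, and fell by 3.85 on the log2 scale (adjusted p = 0.000178 in edgeR). Ccl24 ran from 0.728 to 3.02 CPM in WT CS and from 0 to 0.199 CPM in WT PH, and fell by 3.96 (adjusted p = 0.000371). In WT the ranges were apart for both genes. In HNKO, where CS and PH overlapped through the PH library of mouse 552, the changes were -1.59 (adjusted p = 0.0406) and -1.96 (adjusted p = 0.0141). Leaving out HNKO mouse 540, 542, 546, 562 or 566 ended the HNKO call of Ccl6, with an adjusted p of 0.0709 to 0.101. Over the same step 10 of 12 macrophage markers fell in WT, where 36.8% of all tested genes were called lower. Clec4f, which marks Kupffer cells, ran from 49.8 to 366 CPM in CS and from 0.0451 to 3.85 CPM in PH. The part of these cells in the fall of Ccl6 and Ccl24 was not tested.

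Interleukins were sparse beside chemokines. Il15, which sustains NK cells and memory T cells, ran from 3.22 to 4.6 CPM in WT CS and from 0.62 to 1.15 CPM in WT PH, and HNKO PH ran from 0.559 to 1.27 CPM. Its groups were apart, with falls of 2.34 in WT (adjusted p = 1.08e-11 in edgeR) and 2.17 in HNKO (adjusted p = 4.53e-11) on the log2 scale. Il1a, an alarmin of the IL-1 family, ran from 5.0 to 13.5 CPM in WT CS and held 0.062 to 0.356 CPM in 5 WT PH libraries and 6.28 CPM in mouse 544, the library that overlapped with CS. It fell by 2.59 in WT (adjusted p = 0.000627) and by 2.87 in HNKO (adjusted p = 0.000173). Il6, the inducer of the acute phase response in hepatocytes, did not pass in WT (1.65, adjusted p = 0.171) and rose by 3.88 ± 0.95 in HNKO (adjusted p = 0.000502). Il11, a gp130 cytokine tied to fibroblasts, rose in WT from 1 count in CS to 53 in PH, a ratio of 31.8 (5.47 to 1281), and in HNKO from 3 to 210, a ratio of 49.3 (16.6 to 241). Il34, a ligand of the macrophage growth factor receptor Csf1r, stood at 0.81 in WT (adjusted p = 0.084) and rose by 1.78 ± 0.40 in HNKO (adjusted p = 0.000166).

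PH against L, which shares the PH libraries with the comparison above, gave 17 ligands called higher and 11 lower in WT, where 75.7% of all tested genes were called, 37.5% higher and 38.2% lower. HNKO gave 18 higher and 11 lower, where 76.2% of all tested genes were called, 37.7% higher and 38.5% lower. The medians were 0.707 and 1.323, beside 0.008 and 0.01 over all tested genes. With genes that had 0 counts in a group set to their bound, the WT median stayed at 0.707. Against 0 counts in WT L, Ccl20 was at least 31.8-fold higher in WT PH with the same floor of 3 counts over the group. Cxcl3 had 1 count in WT L and 3776 in WT PH.

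The effect of Nampt loss was read from HNKO against WT within each sample type. In L, 0 of 35 ligands were called, where 1.51% of all tested genes were called. At an unadjusted p under 0.05 there were 4 ligands in edgeR, and DESeq2 called 1. The median of 0.17 stood beside -0.001 over all tested genes. Cxcl16 came closest: WT L held 9.13, 8.54, 8.09, 8.72 and 9.57 CPM, and HNKO L ran from 11 to 25.2 CPM with a median of 15.7. Every HNKO liver lay above every WT liver, with a log2 fold change of 0.93 ± 0.25 and an adjusted p of 0.0504 in edgeR, which ran from 0.0124 to 0.175 over the alternatives. Cx3cl1 had groups that did not overlap either, with 0.512 to 0.978 CPM in WT L and 1.05 to 3.51 CPM in HNKO L (1.48, adjusted p = 0.142). These were 2 of 35 ligands with every HNKO library above every WT one, where 2.08% of all tested genes had that order, and in CS there were 0 of 35, where 0.509% had it.

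Ccl2 in HNKO L ran from 0.441 to 16.9 CPM with a median of 1.64, the highest value coming from mouse 552, against 0.744 to 2.31 CPM in WT L (1.73, adjusted p = 0.218). The ranges overlapped. In this mouse, cholangiocyte markers summed to 1394 CPM in L, against 74.0 to 359 CPM in the other HNKO livers and 44.4 to 59.8 CPM in WT livers. Of these markers, 3 of 7 were called higher in HNKO L, where 1.03% of all tested genes were. Without mouse 552 there was 1 of 6, where 0.481% of all tested genes were called higher. Without mouse 544 there were 2 of 7, where 0.557% were. The part of these cells in the ligand levels was not tested.

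In CS, 0 of 35 ligands were called between the genotypes, where 0.0268% of all tested genes were called. edgeR gave 3 ligands at an unadjusted p under 0.05, and DESeq2 called 0. The median was 0.49 beside 0.011 over all tested genes, and 25 of 35 ligands had a positive log2 fold change. Cxcl16 ran from 6.11 to 12.5 CPM in WT CS and from 7.82 to 24.8 CPM in HNKO CS, overlapping ranges (0.64 ± 0.24, adjusted p = 0.212). Without mouse 544 its adjusted p was 0.0459 and 1 ligand was called, where 3.95% of all tested genes were. Macrophage markers without Cd68 summed to 1819 CPM in HNKO CS of mouse 552 against 424 to 618 CPM in the other HNKO CS libraries, and this library held the highest Ccl6 (24.4 CPM against 6.21 to 10.2) and Il1a (24.5 CPM against 9.15 to 12.9) of its group.

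In PH, 11 of 35 ligands were called higher in HNKO than in WT, 0 were called lower and 24 did not pass, where 5.14% of all tested genes were called higher and 7.67% lower. The 11 were the chemokines Ccl5, Ccl6, Ccl7, Ccl9, Ccl20, Ccl24, Cx3cl1 and Cxcl14 and the interleukins Il6, Il11 and Il34. A positive log2 fold change was seen for 29 of 35, 18 had an unadjusted p under 0.05, and the median of 0.864 stood beside 0.005 over all tested genes. By family, 2 of 3 Ccr2 and eotaxin ligands, 2 of 3 IL-6 and IL-12 family members and 0 of 4 ELR CXC chemokines were called. The count depended on the libraries and the fit. It was 25 without WT mouse 544, where 13.4% of all tested genes were called higher, and 4 without HNKO mouse 552, where 3.33% were. Leaving out WT mouse 548, 554, 556, 558 or 564 gave 5, 2, 3, 3 and 4 ligands, where 3.05%, 1.89%, 2.65%, 2.02% and 2.75% of all tested genes were called higher, and leaving out HNKO mouse 566 gave 6, where 3.43% were. DESeq2 called 7 higher, where 6.6% of all tested genes were, and all 36 libraries together gave 5, where 2.14% were. A fit on the PH libraries alone gave 0 of 24 tested ligands, where 0.0232% of all tested genes were called in either direction.

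**Figure D3:**
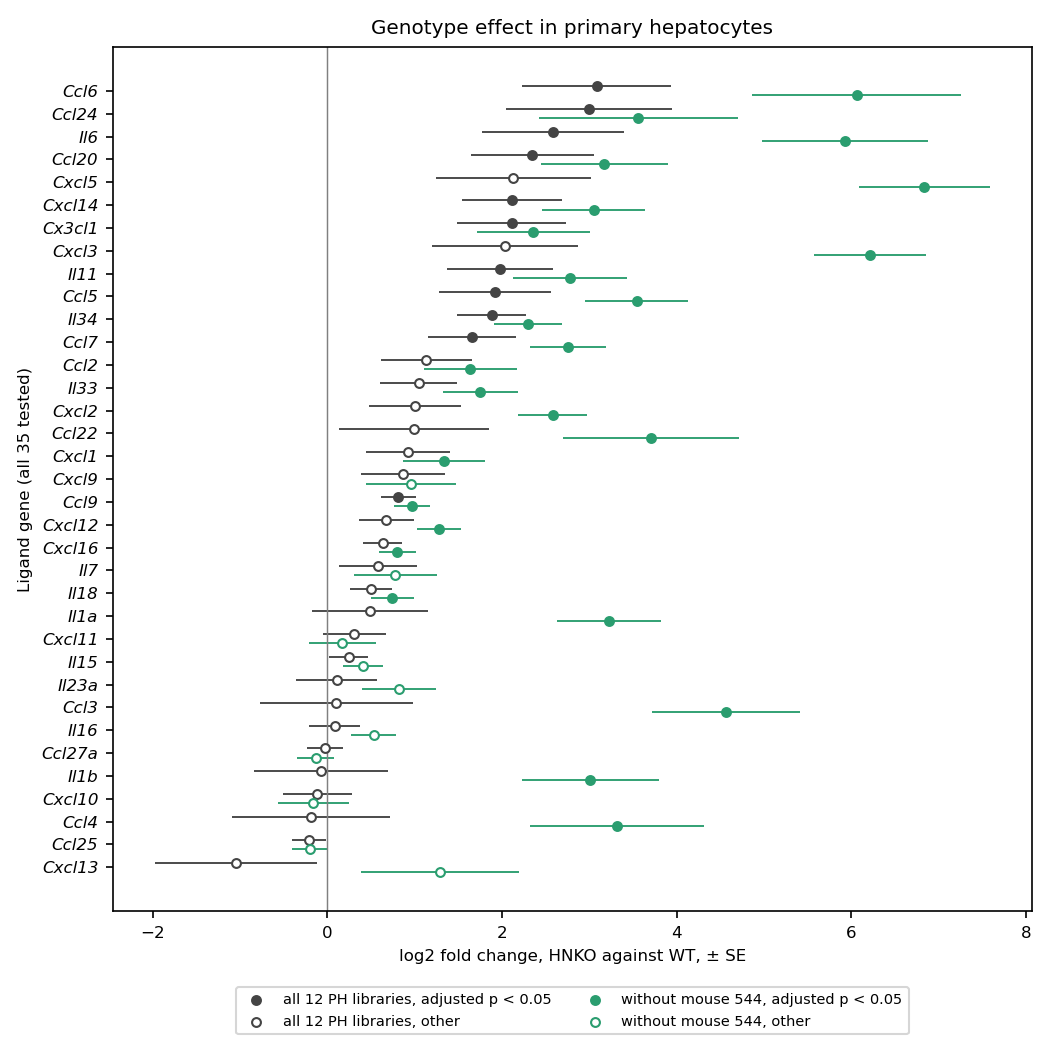
Log2 fold change of HNKO against WT in PH with its SE for the 35 tested ligands, from all 12 PH libraries (grey) and without mouse 544 (green); filled points had an adjusted p under 0.05 in edgeR. Cxcl3 moves from 2.03 to 6.21 and Cxcl5 from 2.13 to 6.84 without mouse 544, and Cxcl10 stays at -0.12 and -0.16.

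Ccl9 and Il34 were called in each of the 12 fits that left out a mouse. Ccl9 ran from 21.5 to 55.4 CPM in WT PH with a median of 38.3 and from 48.0 to 80.6 CPM in HNKO PH with a median of 64.9. The groups overlapped at the WT library of mouse 544, and Ccl9 was 1.76-fold higher in HNKO (0.81 ± 0.20, adjusted p = 0.00686 in edgeR). Il34 ran from 0.857 to 5.33 CPM in WT PH with a median of 2.14 and from 5.0 to 16.7 CPM in HNKO PH with a median of 7.92. The overlap was again with mouse 544, and Il34 was 3.69-fold higher in HNKO (1.88 ± 0.40, adjusted p = 0.00252). Over the fits without a mouse, the adjusted p of Il34 ran from 0.000102 to 0.0158 and that of Ccl9 from 0.000743 to 0.0309, while the fit on PH libraries alone gave 0.0548 and 0.0601. Of the same 12 fits, 10 called Cxcl14, 8 Ccl6, 7 Cx3cl1, 6 Ccl24, 5 each Ccl5 and Ccl20, and 4 Ccl7, and Il6 and Il11 were called in 3 each of the 8 fits in which they passed the filter.

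Il34 was also the ligand whose genotype effect differed between sample types. In L it ran the other way, with 2.88, 2.32, 3.25, 3.84 and 4.1 CPM in WT and 1.26 to 3.69 CPM in HNKO (-0.45, adjusted p = 0.61), overlapping groups. In CS, WT ran from 0.78 to 2.64 CPM and HNKO from 1.21 to 5.57 CPM (0.91, adjusted p = 0.329), also overlapping. The difference of the genotype effect between PH and L was 2.33 ± 0.58 (adjusted p = 0.0373 in edgeR), 1 of 35 ligands where 1.58% of all tested genes were called in either direction and 0.609% higher. It kept that call without mouse 544, 546 or 562, and its adjusted p ran from 0.0539 to 0.11 without each of the other 9 mice. Between PH and CS, 0 of 35 ligands were called where 0.221% of all tested genes were, with 3 at an unadjusted p under 0.05 in edgeR and 0 called by DESeq2, and 5 were called without mouse 544 (Ccl6, Cxcl3, Cxcl5, Cxcl12 and Il6), where 4.29% of all tested genes were. Exons of Il34 overlap Gm15894 and Gm15895 on the opposite strand.

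Ccl7 ran from 4.09 to 8.61 CPM in 5 WT PH libraries, held 51.6 CPM in mouse 544, and ran from 12.1 to 98.9 CPM in HNKO PH with a median of 37.5. It was 3.15-fold higher in HNKO (1.66 ± 0.51, adjusted p = 0.0295 in edgeR). Ccl5 held 1.04 to 4.9 CPM in 5 WT PH libraries, 40.6 CPM in mouse 544, and 4.95 to 107 CPM in HNKO PH (3.77-fold, adjusted p = 0.0453). For both, the 5 other WT libraries lay below every HNKO library. Ccl20 ran from 0 to 4.01 CPM in WT PH, highest in mouse 544, and from 1.45 to 22.2 CPM in HNKO PH, overlapping ranges (5.09-fold, adjusted p = 0.0311). Cxcl14, a chemokine of epithelia, ran from 0 to 1.95 CPM in WT PH and from 0.762 to 6.77 CPM in HNKO PH, again with overlap through mouse 544 (4.33-fold, adjusted p = 0.0147). Without mouse 552 the adjusted p of Ccl7, Ccl5, Ccl20 and Cxcl14 was 0.0891, 0.231, 0.144 and 0.0657.

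Cx3cl1 ran from 0 to 0.356 CPM in WT PH and from 0.226 to 1.0 CPM in HNKO PH, with overlap (4.32-fold, adjusted p = 0.0236 in edgeR). Ccl6 and Ccl24 rested on HNKO mouse 552. Ccl6 held 17 CPM in that library, 0.0508 to 1.3 CPM in the other 5, and 0 to 1.87 CPM in WT PH, with a log2 fold change of 3.08 ± 0.86 (adjusted p = 0.0167) that became 0.62 (adjusted p = 0.613) without it. Ccl24 held 3.74 CPM there, 0 to 0.2 CPM in the other 5, and 0 to 0.199 CPM in WT PH, and its change of 3.00 ± 0.95 (adjusted p = 0.0344) turned to -0.28 (adjusted p = 0.872) without it. Apart from mouse 552 the groups overlapped for both genes.

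Il6 held 0 to 0.119 CPM in 5 WT PH libraries, 2.11 CPM in mouse 544, and 0.289 to 8.54 CPM in HNKO PH with a median of 1.61. It was 6.0-fold higher in HNKO (2.58 ± 0.81, adjusted p = 0.0329 in edgeR). Il11 ran from 0.139 to 1.23 CPM in WT PH and from 0.4 to 5.03 CPM in HNKO PH, overlapping ranges, and was 3.94-fold higher (1.98 ± 0.61, adjusted p = 0.0297). Without mouse 552 these genes did not pass the filter on low counts.

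**Figure D4:**
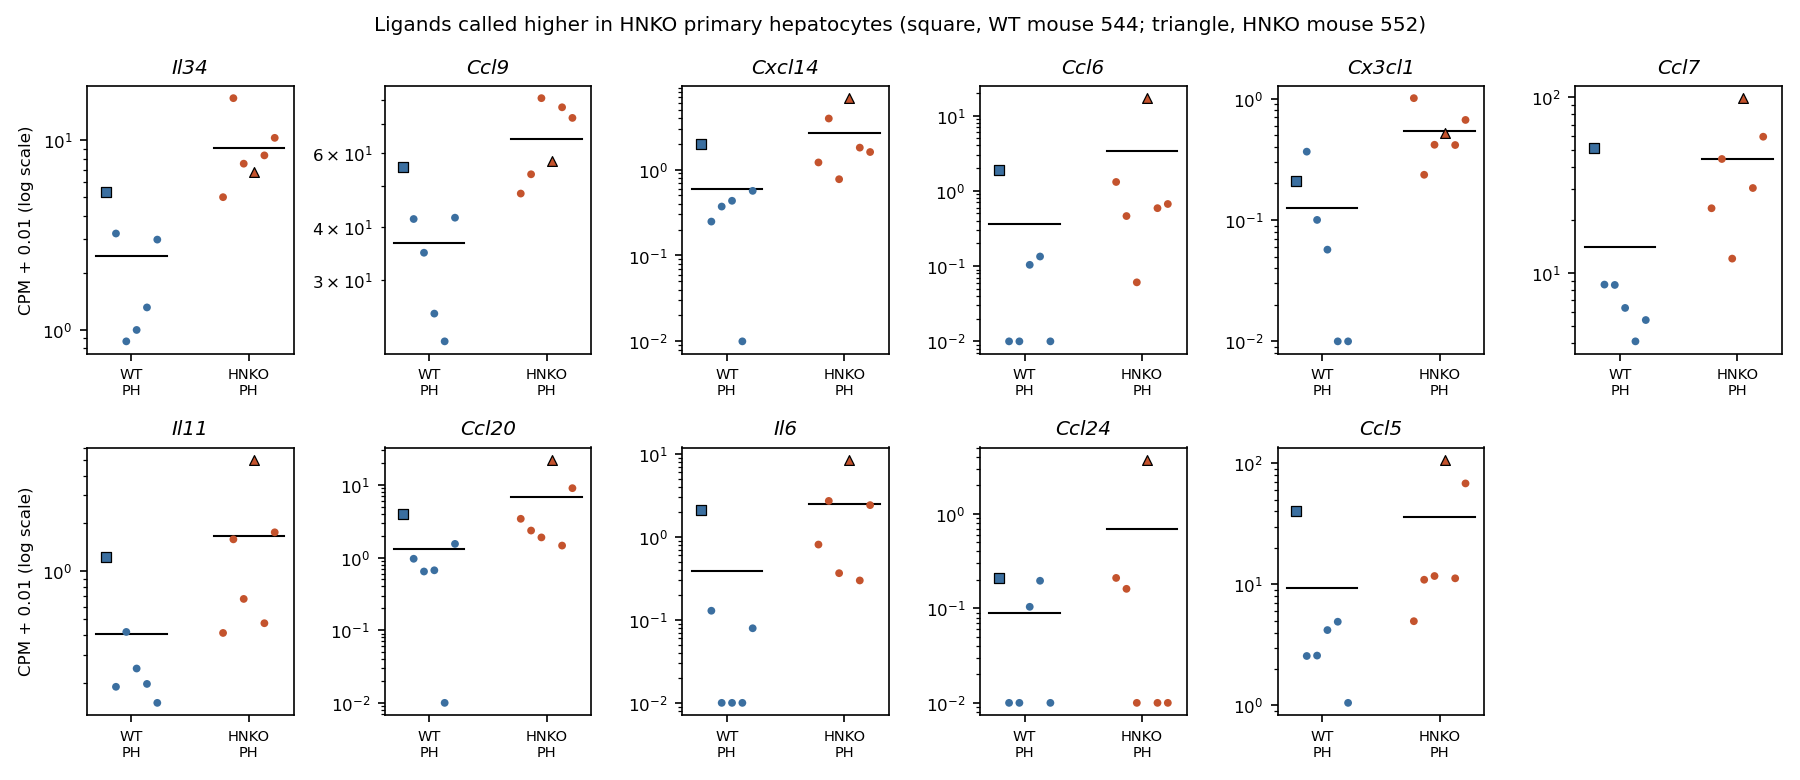
Level of the 11 ligands called higher in HNKO PH, as CPM plus 0.01 on a log axis, in each WT (blue) and HNKO (orange) PH library. Bars are group means, squares mark WT mouse 544 and triangles HNKO mouse 552. Il34 lies at 0.857 to 5.33 CPM in WT and 5.0 to 16.7 CPM in HNKO, and the HNKO mean of Ccl24 rests on the 3.74 CPM of mouse 552.

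The ELR CXC chemokines and Ccl2 were higher in HNKO PH but were not called with mouse 544 in the fit. For Cxcl3 the log2 fold change was 2.03 ± 0.84 (adjusted p = 0.102 in edgeR) and became 6.21 ± 0.65 (74.3-fold, adjusted p = 3.35e-07) without it. Cxcl5 went from 2.13 ± 0.89 (adjusted p = 0.107) to 6.84 ± 0.75 (114-fold, adjusted p = 6.03e-07). Cxcl2 went from 1.00 ± 0.53 (adjusted p = 0.213) to 2.58 ± 0.39 (5.98-fold, adjusted p = 2.95e-05). The size and the call of these genes thus turned on a single WT library. That library was picked because it was high in these same ligands. Values without it therefore describe the other libraries and are no independent evidence of a genotype effect. Cxcl1 went from 0.92 ± 0.48 (adjusted p = 0.203) to 1.34 ± 0.47 (2.53-fold, adjusted p = 0.034), and Ccl2 from 1.13 ± 0.52 (adjusted p = 0.145) to 1.64 ± 0.53 (3.11-fold, adjusted p = 0.0226).

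Cxcl12 went from 0.67 (adjusted p = 0.155 in edgeR) to 1.28 ± 0.25 (2.43-fold, adjusted p = 0.000384) without mouse 544, and Cxcl16 from 0.63 ± 0.22 (adjusted p = 0.0508) to 0.80 ± 0.21 (adjusted p = 0.0054). With all libraries, 0 of 35 ligands had every HNKO PH library above every WT one, where 0.824% of all tested genes had that order. Without mouse 544, picked for its high levels of several of these ligands, there were 14 of 35, where 6.88% had it. These were Ccl2, Ccl5, Ccl7, Ccl9, Ccl22, Cxcl1, Cxcl2, Cxcl3, Cxcl5, Cxcl12, Cxcl14, Cxcl16, Il6 and Il34, of which Ccl22 is outside the rule for named genes and was added after its values were seen. Cxcl10 (-0.12 and -0.16), Cxcl9 (0.86 and 0.96) and Cxcl11 (0.31 and 0.17) were not called with or without that mouse.

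Marker lists in PH did not all move in the same way. Sinusoidal endothelial markers summed to 83.8 to 119 CPM in WT PH and 72.4 to 125 CPM in HNKO PH. Of 12 macrophage markers and of 6 tested T, NK and B cell markers, 0 were called between genotypes in PH. Stellate and fibroblast markers summed to 64.2 to 92.3 CPM in 5 WT PH libraries, 237 CPM in mouse 544, and 81.7 to 351 CPM in HNKO PH. Of 9 such markers, 4 were called higher and 1 lower in HNKO PH, where 5.14% of all tested genes were called higher and 7.67% lower. Without mouse 552, 2 were called higher and 1 lower, where 3.33% of all tested genes were called higher. Without mouse 544, 6 were called higher and 1 lower, where 13.4% were called higher. Cholangiocyte markers summed to 25.8 to 48.8 CPM in the 5 WT libraries, 219 CPM in mouse 544, and 73.4 to 452 CPM in HNKO PH, where 1 of 7 was called higher. Neutrophil markers summed to 0 to 0.248 CPM in the 5 WT libraries, 4.57 CPM in mouse 544, and 0.347 to 2.71 CPM in HNKO PH, and 0 of 3 tested were called. S100a8 made up 2.31 CPM of the sum in mouse 544. Of the 8 neutrophil markers, Camp, Ly6g, Mpo and Ngp were at 0 counts in WT PH, and Camp and Ly6g in HNKO PH. The WT library with the highest neutrophil chemokines was thus also the WT library with the highest sums of the stellate, cholangiocyte and neutrophil lists. Hepatocyte markers summed to 36513 to 59032 CPM in WT PH, lowest in mouse 544, and 30544 to 46039 CPM in HNKO PH, where 5 of 7 were called lower. The part of these cells in the ligand results was not tested.

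Chemokine receptors were read as a list of 13 tested genes. In L, 4 were called higher in HNKO, where 1.03% of all tested genes were, with Cx3cr1, the receptor of Cx3cl1 on monocytes, at 3.05 ± 0.58 (adjusted p = 0.00737 in edgeR) and Ccr2, the receptor of Ccl2, at 2.43 (adjusted p = 0.0295). Without mouse 552 there was 1 of 10, where 0.481% of all tested genes were called higher, and without mouse 544 1 of 14, where 0.557% were. In PH, 2 of 13 were called higher, among them Ccr1, a receptor of Ccl9 (2.89, adjusted p = 0.0334), and 1 lower, Ackr3, a scavenging receptor of Cxcl12 (-2.27, adjusted p = 0.0027). Of all tested genes, 5.14% were called higher in HNKO PH and 7.67% lower. The list median in PH was 0.72, beside 0.005 over all tested genes. Without mouse 552, 0 of 10 were called higher in PH and 1 lower, where 3.33% of all tested genes were called higher. The list median was then 0.33. Without mouse 544, 4 of 14 were called higher in PH and 1 lower, where 13.4% of all tested genes were called higher. Against CS, Ackr3 rose by 5.94 in WT PH (adjusted p = 1.69e-09) while its ligand Cxcl12 fell.

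Of 26 tested interleukin receptors, 10 rose and 8 fell in WT PH against WT CS, a share near the 38.3% of all tested genes called higher and the 36.8% called lower. Osmr, the oncostatin M receptor subunit, rose by 3.74 (adjusted p = 7.37e-13 in edgeR) and Il22ra1 by 3.57 (adjusted p = 2.72e-16), while Lifr fell by 3.50 (adjusted p = 2.43e-15) and Il1rap, the shared subunit of IL-1 receptors, by 2.93 (adjusted p = 1.15e-16). Between genotypes in PH, 1 of the 26 was called higher and 2 lower, shares near the 5.14% and 7.67% of all tested genes. Il3ra was higher (1.20, adjusted p = 0.00361), and Il17rb (-1.83, adjusted p = 0.00468) and Il6ra, the receptor of Il6, were lower (-0.74, adjusted p = 0.0281). Without mouse 544, 10 of 26 were called higher and 3 lower, where 13.4% of all tested genes were called higher. Without mouse 552, 1 of 24 was called higher and 2 lower, where 3.33% were called higher. Il1rn, the IL-1 receptor antagonist, rose by 2.64 in WT (adjusted p = 6.87e-06) and 4.02 in HNKO (adjusted p = 6.99e-09) in PH against CS. Its genotype effect in PH was 1.22 ± 0.43 (adjusted p = 0.055).

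Feedback genes and targets of NF-kB were read as a list of 17. In PH against CS, 16 rose in WT and 17 in HNKO, where 38.3% and 38.1% of all tested genes were called higher, with Nfkb2 at 3.74 (adjusted p = 3.36e-21 in edgeR) and Tnfaip3, which encodes the inhibitor A20, at 4.68 (adjusted p = 1.12e-14) in WT. In CS against L, Nfkbiz was called in HNKO (1.21, adjusted p = 0.00937) and not in WT (0.94, adjusted p = 0.103), and Socs3, the Stat3 feedback inhibitor, rose by 2.65 in WT (adjusted p = 0.00545) and 3.82 in HNKO (adjusted p = 2.98e-05). Between genotypes in PH, 7 of 17 NF-kB genes were called higher, among them Nfkbie (0.80, adjusted p = 0.00555), Tnip1 (1.05, adjusted p = 0.0069) and Tnfaip3 (0.99, adjusted p = 0.0147), with a list median of 0.487, where 5.14% of all tested genes were called higher. Without mouse 544 there were 11, where 13.4% were, and without mouse 552 there were 3, where 3.33% were. Among 10 tested cytokines outside the symbol rule, 2 were called higher in HNKO PH and 0 lower, where 5.14% of all tested genes were called higher. Csf1, which shares Csf1r with Il34, was higher (1.03, adjusted p = 0.00261), as was the IL-6 family cytokine Lif (1.80, adjusted p = 0.0305). Without mouse 552 there was 1, where 3.33% were, and without mouse 544 there were 7, where 13.4% were. Lif was highest in HNKO PH in mouse 552 (86.2 CPM) and in WT PH in mouse 544 (44.5 CPM, with at most 8.5 in the others).

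Of the 39 ligand genes that were not tested, 20 had 0 counts in all 35 libraries and 19 had counts, at most 218 for a gene over all libraries. Together they held 0.0964% of the counts in ligand genes. At these depths their levels could not be compared between groups.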

How the data were processed

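Total RNA from liver, cell suspension and cultured hepatocytes of 12 mice was sequenced after ribosomal depletion with a stranded kit. The authors aligned the paired reads with STAR to GRCm38 and made the deposited counts, whole read numbers per GENCODE gene, with featureCounts 1.6.4. Whether counting used strand is not given in the sources used here. The WT liver library of mouse 558 was left out, since its depth and its mean correlation of 0.781 with other livers (0.941 for the next lowest library) stood apart, and 67 genes without a symbol held 0.0013% of counts.

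The 35 other libraries were fitted together by group in edgeR 4.0.16 (R 4.3.3, limma 3.58.1) with TMM scaling, filterByExpr at a minimum count of 10 and quasi-likelihood tests. P-values were adjusted by the Benjamini-Hochberg method over the 14932 genes tested for each contrast, and genes were called under 0.05. SEs are the log2 fold change over the root of F. Ratios on few counts have exact 95% intervals, and intervals and floors cover counting error only. The fit was tested on simulated data. Alternatives were DESeq2 1.42.0, DESeq2 size factors, no filter, all 36 libraries, only the groups compared, a replicate block on the mouse, and each mouse left out.

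The 3 sample types of a mouse are paired by design. The median correlation of their deviations from the group means was 0.324 for L with CS, 0.101 for L with PH and 0.156 for CS with PH, against -0.0393, -0.0156 and -0.0284 for other mice.

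Named were the 12 ligands of highest mean CPM in any group, those called for a genotype effect or its difference, and the 6 largest called rises and falls (mean of at least 0.5 CPM) in CS against L and PH against CS in WT. For pathway lists, up to 4 genes with the smallest p in a contrast and Il1rn were named. Members and lists were chosen with earlier results of these data known. Coordinates and promoters are from GENCODE and RefSeq annotation of GRCm38, with promoters for 23 of the 35 tested ligands.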

Additional observations from a re-analysis of the deposited data

Results flagged for a closer look

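In 138 groups of libraries of the named ligands, 18 held a library far from the others by Dixon's criterion. For normally distributed values, chance alone meets it in about 1 in 20 groups. Where all other libraries held 0, any library with counts meets it, so that rate does not hold for such groups. Of the 18, 9 were WT PH of mouse 544. They were Cxcl2 (275 CPM against 16.3 to 29.4 in the other 5), Cxcl3 (145 against 0.868 to 1.9), Cxcl5 (101 against 0.347 to 0.891), Cxcl12 (64.8 against 12.2 to 20.6), Ccl7 (51.6 against 4.09 to 8.61), Ccl6 (1.87 against 0 to 0.124), Il1a (6.28 against 0.062 to 0.356), Il6 (2.11 against 0 to 0.119) and Il15 (1.15 against 0.62 to 0.772).

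A further 3 came from HNKO mouse 552, with Ccl24 in PH (3.74 CPM against 0 to 0.2), Ccl6 in CS (24.4 against 6.21 to 10.2) and Il1a in CS (24.5 against 9.15 to 12.9). Mouse 548 stood out in WT CS with Ccl2 (5.26 CPM against 0.624 to 1.32), Cxcl5 (0.804 CPM) and Ccl20 (0.146 CPM), where the other 5 libraries held 0 for Cxcl5 and Ccl20. Single low values above libraries at 0 were Cxcl3 in WT L of mouse 556 (0.0752 CPM), Cxcl5 in HNKO CS of mouse 542 (0.0819 CPM) and Il11 in WT CS of mouse 558 (0.104 CPM).

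The genotype effect on Il34 differed between PH and L by 2.33 on the log2 scale (adjusted p = 0.0373 in edgeR), with an adjusted p of 0.00396 to 0.11 over the fits that left out a mouse.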

How the results depend on the processing

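Counts of called ligands moved as follows. In L between genotypes, DESeq2 size factors, a fit on the groups compared and DESeq2 each called 1 (Cxcl16) in place of 0. In PH between genotypes, all 36 libraries gave 5, DESeq2 7 and the PH libraries alone 0, in place of 11. In CS against L, WT gave 3 in the fit on its groups, 2 with the replicate block and 2 with DESeq2, in place of 1, and HNKO gave 7 in the fit on its groups in place of 4. The PH against L difference of the genotype effect gave 0 in the fit on its groups, in place of 1.

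Leaving out a mouse gave 0 to 1 ligands in L and in CS between genotypes, and 2 to 25 in PH. It gave 1 to 2 in CS against L in WT and 2 to 6 in HNKO, where without mouse 544 Il34 in WT was gained. PH against CS gave 23 to 27 in WT and 22 to 29 in HNKO, and PH against L 25 to 28 and 23 to 31. Differences of the genotype effect gave 0 for CS against L, 0 to 5 for PH against CS and 0 to 6 for PH against L, with the highest counts without mouse 544. The genotype effect on Ccl24 in PH ran from -0.28 without mouse 552 to 3.56 without mouse 544. The causes were not tested.

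With the replicate block, Cxcl2 was gained in CS against L in WT and Cxcl14 in PH against CS in HNKO (0.92, adjusted p = 0.0424), and Cxcl10 was lost in HNKO in CS against L and PH against CS. In PH against L, Ccl3 (adjusted p = 0.0924) and Ccl4 (adjusted p = 0.169) were lost in WT, Il1b and Cxcl14 were gained in WT, and Il7 and Il16 in HNKO. It changed no other ligand call. DESeq2 size factors moved the median of all genes by at most 0.056 (log2). Depth limits the ligands with few counts, such as Cxcl3 and Ccl20 in L and CS.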
